A study of Arabidopsis thaliana with 12 samples.

Results

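Photosystem II splits water in the thylakoid membrane. Its core is built from chloroplast- and nucleus-encoded subunits, receives light energy from an antenna of chlorophyll a/b proteins, and is put together and repaired with the help of assembly factors that are not part of the working complex. Strong light damages the reaction centre, and damaged complexes are taken apart and rebuilt in normal light, so plants returned from light stress are a setting in which subunit, antenna and assembly genes can be set side by side. The 5 genes described here were taken by name and locus: the subunit genes PSBW (AT2G30570) and PSBY (AT1G67740), the antenna gene LHB1B2 (AT2G34420), and the assembly factor genes PSB27 (AT1G03600) and LPA19 (AT1G05385). Each had 1 probe that the platform annotation assigns to that gene alone, and together they are 5 of 689 genes with a probe of their own and of 3438 features on the array.

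RNA levels were measured in 6 recovery samples, from plants held at 1000 µE for 1 h and returned to 80 µE, and in 6 control samples, from plants kept at 80 µE. All 12 are total RNA of wild-type *Arabidopsis thaliana*, ecotype Columbia 0. The time back at 80 µE is 2 h in the titles and 1 h in the source names, and the titles give 0 h for the controls, so light history and sampling time cannot be told apart. The labels name no tissue or plant age, and of 7 markers of green tissue and 5 of root none had a probe of its own, so the tissue could not be checked. A lower level can mean less RNA per cell or fewer cells of a type, and these cannot be told apart in such samples.

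The values were deposited as linear intensities between 0 and 100, whose scaling is not given in the sources used here. The samples' median intensities were 0.196 to 0.458 in recovery and 0.1996 to 0.284 in control plants, and 171 to 274 probes of a recovery sample and 228 to 383 of a control sample were listed at 0. Recovery samples 1, 2, 5 and 6 had the higher medians, 0.426 to 0.458, and recovery samples 3 and 4 had 0.197 and 0.196. For tests the values were therefore quantile-normalised and taken to log2, with a floor at -5.07 that none of the 5 genes touched in any sample. Neighbouring replicate numbers of a group (1 with 2, 3 with 4, 5 with 6) were alike, at correlations of 0.853 to 0.942, against 0.683 to 0.824 for the group's other sample pairs. No label ties a sample to a plant, pool or day. The p-values, SDs, standard errors and confidence intervals therefore reflect how much these arrays vary, a variation that may be technical.

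None of the 5 genes passed limma's test between recovery and control plants at an adjusted p under 0.05, a threshold that 3.03% of all features passed. After normalisation both assembly factor genes had lower means in recovery than in control plants, with log2 fold changes of -1.17 (PSB27) and -0.56 (LPA19). The antenna gene LHB1B2 and the subunit gene PSBW had slightly higher means, with log2 fold changes of 0.23 and 0.35, and the subunit gene PSBY had a lower one, -0.44. The median over the 5 genes was -0.44, beside -0.02 over all features, of which 51.8% lay below 0. No member had an unadjusted p under 0.05, against 629 of the 3438 features.

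**Figure D1:**
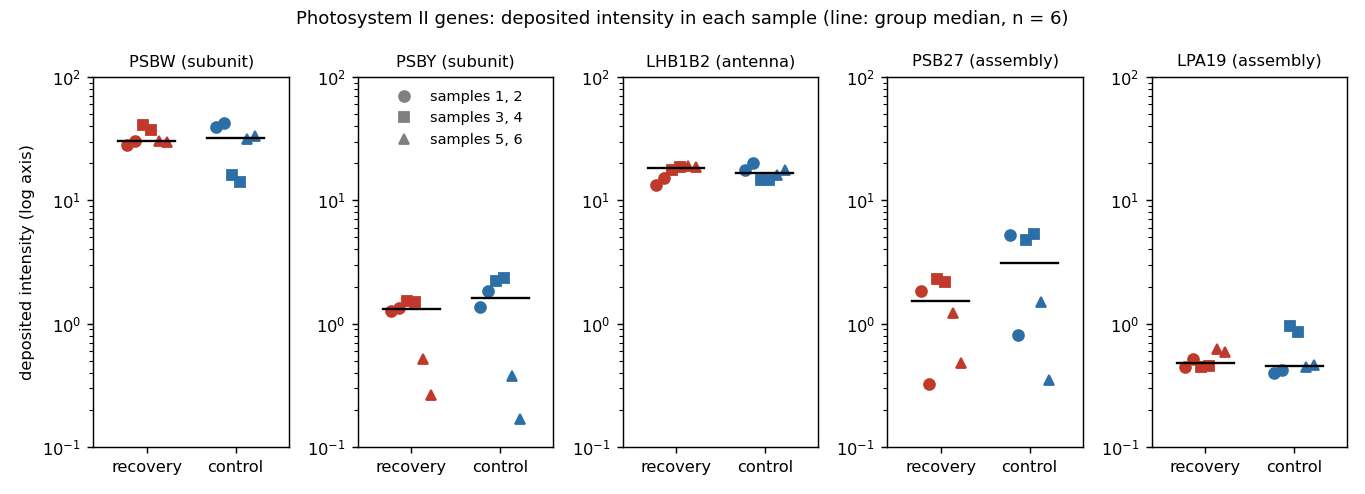
Deposited intensity (log axis) of the 5 photosystem II genes in each of 6 recovery and 6 control samples, with samples 1 and 2 as circles, 3 and 4 as squares and 5 and 6 as triangles, and the group median as a line. The groups overlap for all 5 genes, as they do for most features on this scale (4.28% do not overlap), and PSB27 and PSBY spread most between samples of a group.

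PSBW codes for a small membrane subunit that holds photosystem II together with its antenna in large supercomplexes. Its deposited intensity in recovery samples 1 to 6 was 28.4, 30.3, 40.9, 37.3, 30.4 and 29.7, against 39.5, 42.1, 16.0, 14.1, 31.4 and 33.3 in control samples 1 to 6. Control samples 3 and 4 were the low ones, and the other 4 controls lay within or above the range of the recovery samples. Its probe was among the brightest on the array, in place 10 or 12 from the top in all 6 recovery samples, and in place 10 or 12 in 4 control samples, 26 in control 3 and 33 in control 4. Since quantile normalisation sets a value by its place, PSBW had the same normalised value in both groups for numbers 1, 2 and 5.

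The mean log2 level of PSBW was 5.03 ± 0.16 in recovery and 4.68 ± 0.77 in control samples (SD, n = 6 each). The log2 fold change of recovery over control was 0.35 (standard error 0.32, 95% confidence interval -0.34 to 1.05; limma, adjusted p = 0.597). Samples 3 and 4 carried a difference of 1.22, samples 1 and 2 one of 0, and samples 5 and 6 one of -0.16. Without samples 3 and 4 of both groups the log2 fold change was -0.0785, so its sign rested on that pair. Leaving out control 3 alone gave 0.19 and control 4 alone 0.13. After median centring it was -0.29.

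PSBY codes for a thylakoid membrane protein of photosystem II whose precursor is cut into more than one mature polypeptide. Recovery samples 1 to 6 had intensities of 1.28, 1.33, 1.52, 1.505, 0.519 and 0.264, and control samples 1 to 6 had 1.36, 1.85, 2.22, 2.34, 0.373 and 0.170. Samples 5 and 6 were the lowest in both groups, and the 2 groups overlapped. The mean log2 level was -0.38 ± 1.31 in recovery and 0.06 ± 1.26 in control samples (SD, n = 6 each), and the log2 fold change was -0.44 (standard error 0.69; limma, adjusted p = 0.777). The 95% confidence interval of that change, -1.95 to 1.06, holds changes of more than the size seen in either direction. The value depended on single samples: with 1 left out it ran from -0.0092 (without recovery 6) to -0.85 (without control 6). Without normalisation it was -0.11. The differences in the 3 pairs of samples were close to each other after normalisation, -0.39, -0.41 and -0.52, although samples 5 and 6 were far dimmer than the rest. On the deposited scale, PSBY was higher in recovery than in control samples for numbers 5 and 6, by 0.48 and 0.63 in log2, and lower for the other 4.

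LHB1B2 codes for a chlorophyll a/b protein of the major trimeric antenna, one of 5 closely related genes. The other 4 are not named on any probe in the annotation used here, and how far their RNA binds to this probe was not tested. Intensities were 13.3, 15.3, 17.7, 18.8, 19.0 and 18.6 in recovery samples 1 to 6 and 17.6, 20.1, 14.7, 14.6, 15.9 and 17.7 in control samples 1 to 6. The highest value belonged to control 2 and the lowest to recovery 1, and all 12 samples lay in a narrow range. The mean log2 level was 4.19 ± 0.20 in recovery and 3.95 ± 0.23 in control samples (SD, n = 6 each). The log2 fold change was 0.23 (standard error 0.17; limma, adjusted p = 0.491), and its 95% confidence interval of -0.13 to 0.60 was the narrowest of the 5 genes. LHB1B2 was higher in recovery for 4 of 6 replicate numbers and lower for numbers 1 and 2, on both the normalised and the deposited scale. The log2 fold change was 0.027 without normalisation (limma, adjusted p = 0.949) and -0.53 after median centring.

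PSB27 codes for a protein of the thylakoid lumen that, as known best from cyanobacteria, binds unfinished photosystem II and leaves before the water-splitting cluster is in place. Its intensity was 1.83, 0.325, 2.295, 2.19, 1.22 and 0.475 in recovery samples 1 to 6, against 5.24, 0.813, 4.73, 5.36, 1.51 and 0.352 in control samples 1 to 6. Control samples 1, 3 and 4 stood above all recovery samples, while control 2 and control 6 lay among the lower recovery values. The mean log2 level was -0.12 ± 1.47 in recovery and 1.05 ± 1.45 in control samples (SD, n = 6 each). The difference of these normalised means corresponds to 2.25 times the level in control samples. The log2 fold change was -1.17 (standard error 0.78, 95% confidence interval -2.88 to 0.54; limma, adjusted p = 0.455). Of all features, 3.64% had a log2 fold change as low or lower. Without normalisation that of PSB27 was -0.84.

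After normalisation the recovery sample of PSB27 was below its control for all 6 replicate numbers, with log2 differences of -1.99 to -0.56. On the deposited scale it was below for 5 of 6, and number 6 was higher in recovery by 0.43. Of the squared spread of PSB27 within a group, 58.2% in recovery and 49.9% in control samples lay between neighbouring numbers, which otherwise resembled each other, and for each of the other 4 genes less than 10% did. In log2, sample 1 exceeded sample 2 by 3.13 among recovery plants and by 2.67 among controls. Sample 5 exceeded sample 6 by 1.68 among recovery plants and by 1.84 among controls. Samples 3 and 4 differed by 0.04 in recovery and -0.16 in control. The median gap within such pairs was 1.76 for PSB27, larger than for 99.3% of features, beside 0.30 for the median feature and 0.10 for LPA19.

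With the replicate number as a block, PSB27 passed limma's test (adjusted p = 0.0492), as 3.08% of all features did, and the other 4 genes did not. That call was lost on the deposited scale (adjusted p = 0.118 with the same block) and without samples 3 and 4 (adjusted p = 0.0712 with the same block), which are fits chosen after the data were seen. With the pairs averaged, 3 against 3, or as a random block, the log2 fold change is -1.17 by construction. Limma's adjusted p was 0.802 and 0.924. Those designs called 0 and 3 of the 3438 features (0% and 0.0873%), none of the 5 genes among them, so they say little about any one gene. The fit over 12 separate samples called 104, so most of its calls do not pass once the pairs are taken into account. The correlation within pairs estimated for the random block was 0.663. At an unadjusted p under 0.05 the pair designs had 203 and 314 of the 3438 features, against 629 in the fit over 12 separate samples. Without recovery 2 and with no block, the log2 fold change of PSB27 was -0.73. Without samples 3 and 4 and with no block, 12.1% of all features were called and 0 of the 5 genes.

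LPA19 codes for a lumen protein related to PSB27 that helps to mature the precursor of a reaction-centre protein. Its intensity was 0.444, 0.514, 0.444, 0.454, 0.624 and 0.587 in recovery samples 1 to 6 and 0.396, 0.424, 0.963, 0.862, 0.448 and 0.461 in control samples 1 to 6. Control samples 3 and 4 were the high ones, and the other 4 control values lay at the lower end of the recovery range or just below it. The mean log2 level was -1.21 ± 0.41 in recovery and -0.66 ± 0.53 in control samples (SD, n = 6 each). The log2 fold change was -0.56 (standard error 0.28, 95% confidence interval -1.16 to 0.05; limma, adjusted p = 0.328). The exact two-sided permutation test over the 12 samples gave an unadjusted p of 0.0736, the lowest of the 5 genes. For PSBW, PSBY, LHB1B2 and PSB27 the same test gave 0.444, 0.558, 0.123 and 0.193. With neighbouring samples averaged, 3 against 3, the exact permutation p of LPA19 was 0.3, where the smallest possible is 0.1.

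The direction of LPA19 depended on the scale for 4 of 6 replicate numbers. After normalisation it was lower in recovery for all 6, with log2 differences of -0.83 to -0.36. The deposited values were higher in recovery for numbers 1, 2, 5 and 6, by 0.16 to 0.48, and lower for 3 and 4, with differences of -1.12 and -0.92. Recovery samples 1, 2, 5 and 6 are those with the raised median intensity, and without normalisation the median log2 fold change of all features was 0.43. The log2 fold change of LPA19 on that scale was -0.13. PSB27, LPA19 and PSBY were thus lower in recovery for all 6 replicate numbers after normalisation, which holds for 9.16% of all features, and none of the 5 genes was so on the deposited scale, against 3.52% of features.

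**Figure D2:**
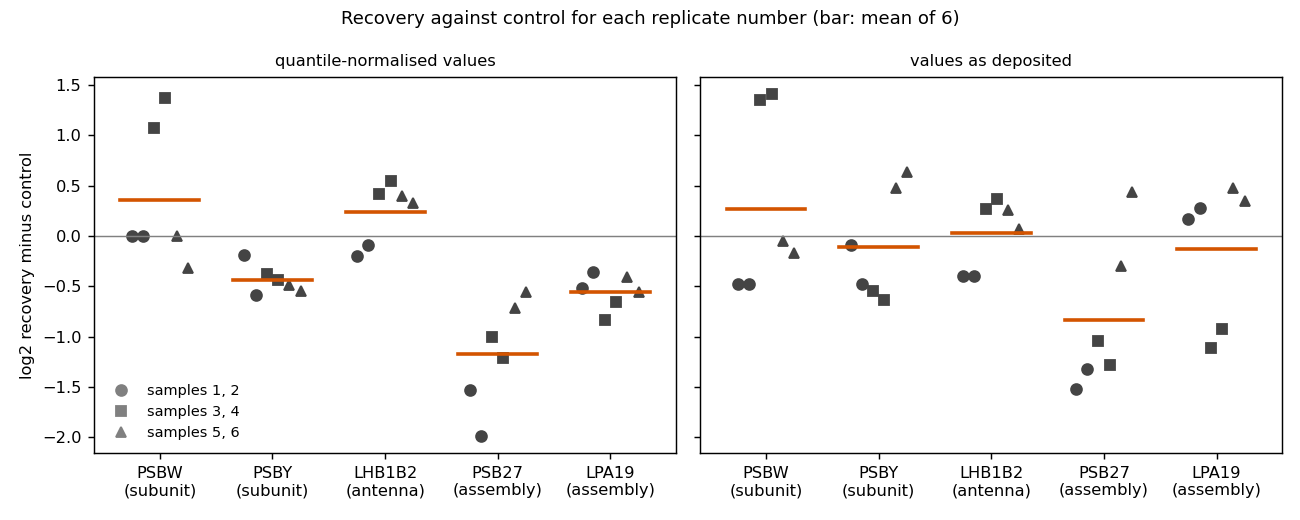
Difference between recovery and control (log2) for each of the 6 replicate numbers and the 5 genes, after quantile normalisation on the left and as deposited on the right, with the mean of 6 as a bar. PSB27, LPA19 and the subunit gene PSBY lie below 0 for all numbers on the left, as 9.16% of all features do. On the right LPA19 lies above 0 for numbers 1, 2, 5 and 6. PSBW is raised in samples 3 and 4 alone.

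The brightness of different probes does not measure the amount of different RNAs, so the levels of subunit, antenna and assembly genes are given side by side only. Averaged over the 12 samples, the probes of PSBW and LHB1B2 stood at percentiles 99.7 and 99.4 of all features. PSB27 stood at 91.5, PSBY at 85.4 and LPA19 at 73.4. The place of PSB27 ran from percentile 37.1 (recovery 2) to 94.0 (recovery 3) in recovery and from 68.3 to 97.7 in control samples. PSBY ran from 32.9 to 91.4 in recovery and from 44.6 to 93.9 in control samples. LPA19 ran from 48.6 to 73.0 in recovery and from 61.4 to 85.7 in control samples. The normalised recovery and control levels of each of the 5 genes overlapped, as for most features, of which 4.42% had groups that did not overlap.

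**Figure D3:**
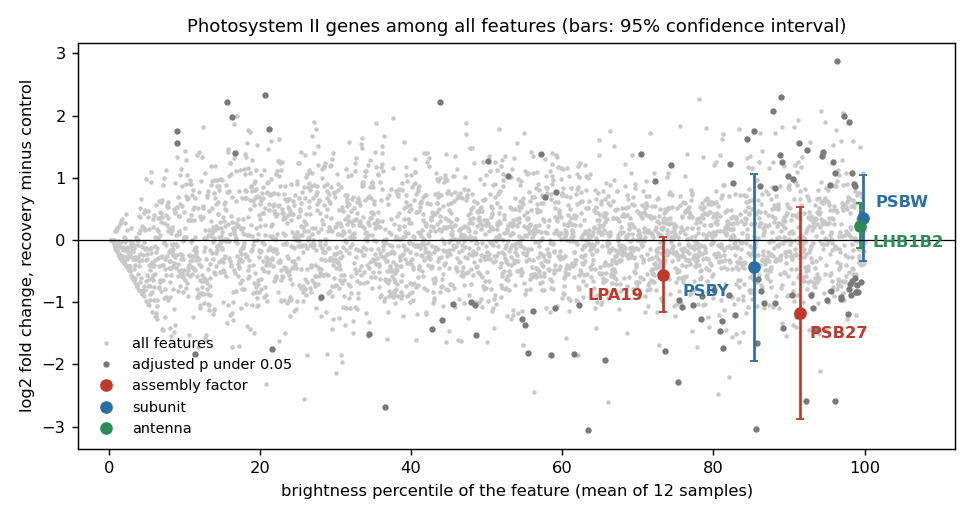
Log2 fold change of recovery over control against brightness percentile for all 3438 features (light grey; dark grey where the adjusted p is under 0.05), with the 5 genes in colour and their 95% confidence intervals. The intervals of all 5 genes include 0, and those of PSB27 and PSBY are the widest.

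Whether assembly factors changed differently from subunits and antenna was asked with the log2 ratio of 2 genes within a sample, for the 6 pairs of an assembly factor with PSBW, PSBY or LHB1B2. Recovery minus control was below 0 for all 6 pairs. It was -1.52 for PSB27 over PSBW, -1.40 for PSB27 over LHB1B2 and -0.73 for PSB27 over PSBY, with standard errors of 1.04, 0.90 and 0.75. It was -0.91 for LPA19 over PSBW, -0.79 for LPA19 over LHB1B2 and -0.11 for LPA19 over PSBY, with standard errors of 0.56, 0.34 and 0.75. No pair passed the exact two-sided permutation test over the 12 samples after adjustment over the 6 pairs, the lowest adjusted p being 0.263. The lowest unadjusted exact p, 0.0498, was that of LPA19 over LHB1B2. On the deposited scale the same test gave 0.578 for LPA19 over LHB1B2. With neighbouring samples averaged, 3 against 3, the exact permutation p was 0.2 for LPA19 over LHB1B2. It was 0.2 to 0.8 over all 6 gene pairs, where the smallest possible is 0.1. After normalisation the mean ratio of LPA19 over LHB1B2 was -5.40 ± 0.36 in recovery and -4.61 ± 0.75 in control samples (SD, n = 6 each). That ratio was lower in recovery for 6 of 6 replicate numbers.

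When labels were exchanged within replicate numbers only, 5 of the 6 pairs, all but LPA19 over PSBY, had an exact permutation p of 0.03125, the smallest that 64 arrangements can give, and an adjusted p of 0.0375. For PSB27 over PSBY this rests on a difference of -0.0056 for number 6. The 6 pairs share the same 5 genes, so they are not separate results. As deposited, PSBW differed by -0.48, -0.47 and -0.05 in log2 for numbers 1, 2 and 5. After normalisation PSBW did not differ for these numbers, so its normalised ratios there carry the change of the assembly gene alone. Of single features, 9.16% were lower in recovery for all 6 numbers, and the share among gene pairs was not tested. This replicate block treats the 6 numbers as independent. With the 3 pairs of samples as the units, the smallest p it could give is 0.25. On the deposited scale, where a factor common to a whole sample cancels in the ratio, no pair passed within replicate numbers (exact permutation, lowest adjusted p 0.188). There PSB27 over PSBY was lower in recovery for 6 of 6 numbers, with log2 differences of -1.43 to -0.20 and an unadjusted exact p of 0.03125, and PSB27 over PSBW and over LHB1B2 for 5 of 6. LPA19 over PSBW and over LHB1B2 were lower for 2 of 6, numbers 3 and 4.

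**Figure D4:**
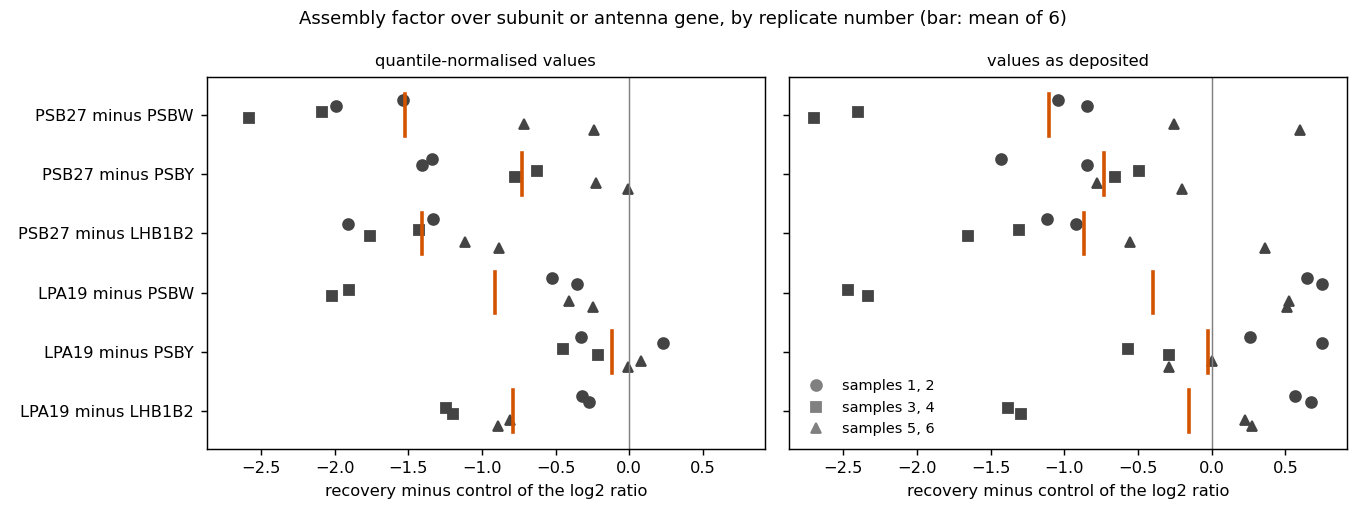
Recovery minus control of the log2 ratio of an assembly factor gene to a subunit or antenna gene for each replicate number, after quantile normalisation on the left and as deposited on the right, with the mean of 6 as a bar. All 6 numbers of 5 pairs lie below 0 on the left, and those of PSB27 over PSBY do on the right.

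The mean of the assembly genes minus that of the other 3 genes, in log2, was -3.62 ± 0.78 in recovery and -2.70 ± 0.93 in control samples (SD, n = 6 each), a difference of -0.91. It ran from -5.11 to -3.08 in recovery and from -4.16 to -1.67 in control samples, so the groups overlapped. Within replicate numbers 1 to 6 recovery minus control was -0.90, -0.95, -1.29, -1.42, -0.53 and -0.38, below 0 for 6 of 6. As deposited it was -0.35, -0.07, -1.44, -1.49, -0.14 and 0.21, below 0 for 5 of 6. The mean difference on the deposited scale, -0.55, thus rested mostly on numbers 3 and 4. After normalisation the mean difference was -0.69 without samples 3 and 4.

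Across the 12 samples the 5 genes did not vary as one group. After normalisation PSB27 and PSBY correlated at 0.58 and PSB27 and LPA19 at 0.49, while PSBW and LPA19 correlated at -0.81. These are descriptions over 12 samples that share pairs and scaling, and several rest on samples 3 and 4: without them, over 8 samples, PSBW and LPA19 had -0.37, PSB27 and LPA19 -0.01, and PSBW and LHB1B2 -0.68 in place of 0.69. PSB27 and PSBY had 0.33.

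The genes with the most similar pattern were looked for among 589 other genes that had their own probe and were at the floor in at most 3 samples. For PSB27 they were AT2G38570 (Pearson r = 0.92 over 12 samples), AT3G50180 (0.90) and AT2G41120 (0.90). For LPA19 they were AT2G28660 (0.96), AT1G01500 (0.93) and TPP2 (AT4G20850, 0.93), the gene of tripeptidyl peptidase II. For LHB1B2 they were THIC (AT2G29630, 0.93), a chloroplast enzyme of thiamine synthesis, AT4G32060 (0.89) and AT3G26580 (0.88). PSBW was most like AT4G14330 (0.94), AT4G17260 (0.93) and AT2G46050 (0.93), and PSBY most like AT4G19160 (0.93), AT3G54930 (0.91) and AT1G68660 (0.90). No member stood among the nearest 3 of another. None of these 15 genes passed limma's test between the groups (lowest adjusted p 0.196), which 3.03% of all features passed.

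Few other genes of the light reactions can be set beside these. Of 101 genes listed for photosystem II, its antenna, its assembly and repair, photosystem I, electron transport and ATP synthase, 8 had a probe of their own, the 5 genes included, and 8 more only a probe shared with other genes. None of the 8 passed limma's test, which 3.03% of all features passed. None had an unadjusted p under 0.05, against 629 of the 3438 features. RBD1 (AT1G54500), a rubredoxin needed for photosystem II to accumulate, was the third gene of assembly and repair, with a mean log2 level of -0.41 ± 0.23 in recovery and -0.48 ± 0.37 in control samples (SD, n = 6 each) and a log2 fold change of 0.08 (standard error 0.20). The assembly and repair list, 3 of 36 genes measured, therefore held log2 fold changes of -1.17, -0.56 and 0.08. In photosystem I, the lumen subunit gene PSAN (AT5G64040) had a log2 fold change of 0.03 and the assembly factor gene PYG7 (AT1G22700) one of 0.37, with standard errors of 0.26 and 0.80.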

How the data were processed

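The members and lists were chosen with earlier results of these data known. The authors deposited linear intensities; array type and earlier processing steps are not given in these sources. From these, 3439 probes (692 with 1 gene, 870 with several, 1877 unnamed; 690 of the 692 found by gene number in the RefSeq gene table, assembly TAIR10.1) were brought to common quantiles with limma 3.58.1 in R 4.3.3. A floor at the 5th percentile of positive values, 0.0298, preceded the log2 step. Probes of the 1 gene with 2 probes were averaged, leaving 3438 features. The groups, read from the titles, were compared with lmFit and eBayes over all features, with two-sided p-values, Benjamini-Hochberg adjustment and a threshold of 0.05. Gene pairs were tested by exact permutation over 924 arrangements. All fits were tested on simulated data.

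Replicate numbers were taken to pair samples across groups: deviations from the group mean correlated at 0.110 to 0.462 for the same number and at -0.229 to 0.168 for other numbers, and all 12 samples were closest to their own number. The text names the 5 genes, genes of the lists with their own probe, and the 3 most similar genes of each member. Alternatives were other normalisations, a pseudocount of 0.1, a filter on features above the floor in at least 6 samples, a trended robust fit, treatments of pairs and samples left out. Precision is limited by the number of arrays.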

Additional observations from a re-analysis of the deposited data

Results flagged for a closer look

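The 5 genes and the mean of assembly factors minus the other genes were checked for a sample that stood apart in its group, in 12 groups of 6 samples, of which chance flags about 1 in 20. One was found. For the mean difference, recovery 2 had -5.11 and the next sample -3.65 on the log2 scale, a gap of 0.723 of the group's range. In that sample PSB27 had an intensity of 0.325, its lowest among the 6 recovery samples.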

How the results depend on the processing

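Over 24 alternatives, PSB27, LPA19 and PSBY kept a log2 fold change below 0, with ranges of -1.58 to -0.73, -0.69 to -0.13 and -0.85 to -0.01. PSB27 passed in 1 of them, the replicate block (-1.17). The replicate block, the pair designs, the filter and the trended robust fit cannot change a log2 fold change, so they do not test its sign. PSBW reversed with median centring (-0.29) and without samples 3 and 4 with or without the block (-0.0785). LHB1B2 reversed with median centring (-0.53). Median centring subtracts each sample's median, so it shifts all features by the same amount from their values without normalisation. Without normalisation PSBW had 0.27, LHB1B2 0.027 and the median feature 0.43, and after centring the median feature had -0.13. Why the sample medians differ was not tested. With the replicate block, PSB27 over PSBW (-1.52), over PSBY (-0.73) and over LHB1B2 (-1.40) and LPA19 over PSBW (-0.91) and over LHB1B2 (-0.79) passed, and not on the deposited scale. LPA19 over PSBY ranged from -0.55 to 0.30 with 1 sample left out.

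The count of called features, 104, was 106 with the replicate block, 65 with median centring, 60 with cyclic loess, 69 with the filter, 3 with the pairs as a random block, 0 with pairs averaged (limma), 416 without samples 3 and 4 (438 with the block) and 289 with the block on the deposited scale. With 1 sample left out it was 42 to 93, and it was under 70 without recovery 1 (55), 2 (51), 5 (42) or 6 (46) or control 3 (61), 4 (65), 5 (65) or 6 (68). Values for samples left out were normalised over all 12.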
